A study of Mus musculus with 13 samples.

Results

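The NF-kB subunits and the lymphotoxin receptor axis were examined as 10 genes chosen by name: the ligand gene Ltb, the receptor gene Ltbr, the adaptor gene Traf3, the kinase gene Map3k14, the subunit genes Nfkb1, Nfkb2, Rel, Rela and Relb, and the inhibitor gene Nfkbia. Each gene was taken through a probe set annotated with its symbol alone, and 8 of the 10 were measured in this way, among 19752 genes in all. Nfkb1 and Traf3 were not analysed here. Each of the 8 had a single probe set, and none was removed by a filter on low values.

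RNA came from thymocytes sorted from 2-week-old mice, with 1 Affymetrix array per sample. V2 cells are immature γδ thymocytes, sorted as TCRδ+ Vγ2+ HSAhi and without CD4 or CD8, where HSA is the immaturity antigen encoded by Cd24a. DP cells carry both CD4 and CD8, the stage at which most αβ thymocytes are found. Groups came from the titles: V2 cKO (4 arrays), V2 WT (4), DP cKO (3) and DP WT (2), where cKO is the conditional knockout of Sox4, a transcription factor gene, and WT is wild type. The V2 titles are written in 2 ways, V2imm and immV2, and those of V2imm say KO without naming the gene. The labels give the sex as mixed in every group. The Cre driver, the strain and any pooling of animals were not found in the labels. Nor do they say whether replicates came from different animals, so a p-value here sets a difference against the scatter of these samples, which may be technical.

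Transcription factors of the NF-kB family wait in the cytoplasm bound to IkB proteins such as the product of Nfkbia. In the canonical pathway a kinase complex marks the IkB protein for destruction, which frees dimers of RelA, c-Rel and the product of Nfkb1. In the non-canonical pathway, lymphotoxin on one cell engages the lymphotoxin β receptor on another. Traf3 then no longer holds down the kinase NIK, encoded by Map3k14, and the precursor made from Nfkb2 is cut to pair with RelB. Nfkbia is itself a target of NF-kB, so its transcript is often read as a sign of past pathway activity as well as a source of inhibitor. In mice, the receptor and RelB are known to support γδ thymocytes that make IL-17, and lymphotoxin from thymocytes acts on the thymic epithelium.

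Of the 13 arrays, 2 carry the population markers of the other population and are shown apart: those labelled DP cKO replicate 5 and V2 WT replicate 5 (immV2). The first had Cd4 at 7.47 and Sox13 at 11.49 in log2 intensity, and the second had Cd4 at 12.65 and Sox13 at 7.73. The tests use the other 11 arrays (4 V2 cKO, 3 V2 WT, 2 DP cKO and 2 DP WT), and values with all 13 as labelled are given for each called member. On the 11, the summed intensity of 9 DP markers was 2542 to 3699 in V2 arrays and 37501 to 43268 in DP arrays, and that of 8 γδ markers was 6242 to 11500 in V2 cKO, 13546 to 14972 in V2 WT and 2825 to 2918 in DP arrays. Sox4 read 8.07, 9.60, 8.11 and 8.23 in V2 cKO, against 8.71, 8.64 and 9.68 in V2 WT, and did not pass the test (log2 difference -0.51, SE 0.38). In DP it read 8.74 and 8.68 in cKO, against 9.37 and 8.55 in WT (-0.25, SE 0.49). The labels do not say which part of Sox4 was deleted, and a probe set outside it would check nothing.

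The windows below are the 250 bases before the start of the 3 genes that carry the results: Nfkbia and Rel, which separated the populations, and Ltb, which varied most among V2 arrays of the axis. They are RefSeq sequences on GRCm38.p6, 5′ to 3′ in the direction of transcription. Capitals mark matches to a relaxed form of the κB site that NF-kB dimers bind, whose letters run GGG, NN, TT, N and CC, where N is any base. It was sought on both strands and chosen after these windows had been read.
Nfkbia, chr12:55492648-55492897, minus strand: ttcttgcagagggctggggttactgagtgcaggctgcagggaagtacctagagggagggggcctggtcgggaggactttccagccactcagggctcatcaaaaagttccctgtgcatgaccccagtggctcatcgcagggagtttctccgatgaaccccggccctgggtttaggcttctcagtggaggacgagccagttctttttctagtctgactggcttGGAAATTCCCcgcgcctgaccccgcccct
Rel, chr11:23770970-23771219, minus strand: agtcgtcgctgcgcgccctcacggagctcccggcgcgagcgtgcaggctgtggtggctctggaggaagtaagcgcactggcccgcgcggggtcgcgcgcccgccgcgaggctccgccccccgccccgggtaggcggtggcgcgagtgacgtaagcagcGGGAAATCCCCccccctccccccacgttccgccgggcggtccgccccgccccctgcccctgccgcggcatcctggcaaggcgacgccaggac
Ltb, chr17:35194257-35194506, plus strand: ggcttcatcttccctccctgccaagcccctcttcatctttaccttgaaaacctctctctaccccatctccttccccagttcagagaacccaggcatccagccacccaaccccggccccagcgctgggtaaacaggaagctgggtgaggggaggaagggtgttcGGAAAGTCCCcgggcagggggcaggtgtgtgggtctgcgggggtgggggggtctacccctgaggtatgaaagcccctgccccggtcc
The Nfkbia window held 1 match, GGAAATTCCC, 29 to 20 bases before the start. The Rel window held 2 overlapping matches, GGGAAATCCC and GGAAATCCCC, from 92 to 82 bases before the start. The Ltb window held 1, GGAAAGTCCC, 87 to 78 bases before the start. Each of these matches reads as the motif on the opposite strand. Of the 7 measured members with a window, 4 held a match. The fourth was Nfkb2, where 2 of 3 windows did, one of them with the palindrome GGGAATTCCC and another with GGGACTTTCC. For all genes with a window the share was 4.71% of 27025. The motif was chosen after the members' windows had been read, so this comparison tests nothing. Ltbr, Map3k14 and Rela had no match in their windows, which says only that these letters are not there, and no window was at hand for Relb.

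Nfkbia, whose product IkBα holds NF-kB dimers in the cytoplasm, was far lower in V2 cells than in DP cells. Its log2 intensity was 9.73, 9.25 and 9.66 on the V2 WT arrays, against 11.31 and 11.04 on the DP WT arrays. Every V2 WT array lay below both DP WT arrays. The difference was -1.59 (SE 0.23, 95% confidence interval -2.09 to -1.08), a 3.00-fold lower level, with an adjusted p = 0.00102 by limma. In knockout cells it read 9.35, 9.91, 10 and 9.86 in V2 cKO, against 11.21 and 10.85 in DP cKO, and the groups again did not overlap. That difference was -1.25 (SE 0.22, adjusted p = 0.00361), or 2.38-fold lower. Without DP cKO replicate 3 it was -1.07 and did not pass (adjusted p = 0.0987).

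Rel, which encodes the activating subunit c-Rel, ran the other way. Rel read 10.29, 10.06 and 10.06 in V2 WT, against 8.77 and 9.50 in DP WT, with no overlap. The difference was 0.99 (SE 0.24, 95% confidence interval 0.47 to 1.52), 1.99-fold higher in V2, with an adjusted p = 0.0332 by limma. This call was not firm: without DP WT replicate 3, the array with the lowest Rel of all, the difference was 0.63 and the adjusted p = 0.392, and it passed in only 3 of the 11 fits that left out 1 array. In knockout cells Rel read 10.50, 9.96, 10.30 and 10.20 in V2 cKO, against 9.61 and 9.40 in DP cKO. All V2 values were above both DP values, but the difference of 0.73 (SE 0.23) did not pass (adjusted p = 0.102).

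Nfkbia and Rel were the only members called between the populations on the 11 arrays. In wild-type cells 2 of the 8 members passed, where 4.87% of all 19752 genes did, and in knockout cells 1 of the 8 passed, where 5.45% of all genes did. With both genotypes averaged in the same fit, an estimate added after these values were seen, V2 (n = 7) and DP (n = 4) differed by -1.42 for Nfkbia (SE 0.16, adjusted p = 5.32e-05) and by 0.86 for Rel (SE 0.17, adjusted p = 0.004). Leaving out each of the 11 arrays in turn gave -1.51 to -1.33 for Nfkbia and 0.68 to 1.05 for Rel, with a highest adjusted p of 0.000754 and 0.0287. In that average 2 of the 8 members and 10.7% of all genes passed. The 7 V2 and 4 DP arrays did not overlap for 2 of the 8 members, the same pair, and for 8.28% of all genes. With so few arrays, separation by itself is common: V2 WT and DP WT did not overlap for 4 of the 8 members and 27.2% of all genes, and V2 cKO and DP cKO did not for 3 of the 8 and 21.1%.

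**Figure D1:**
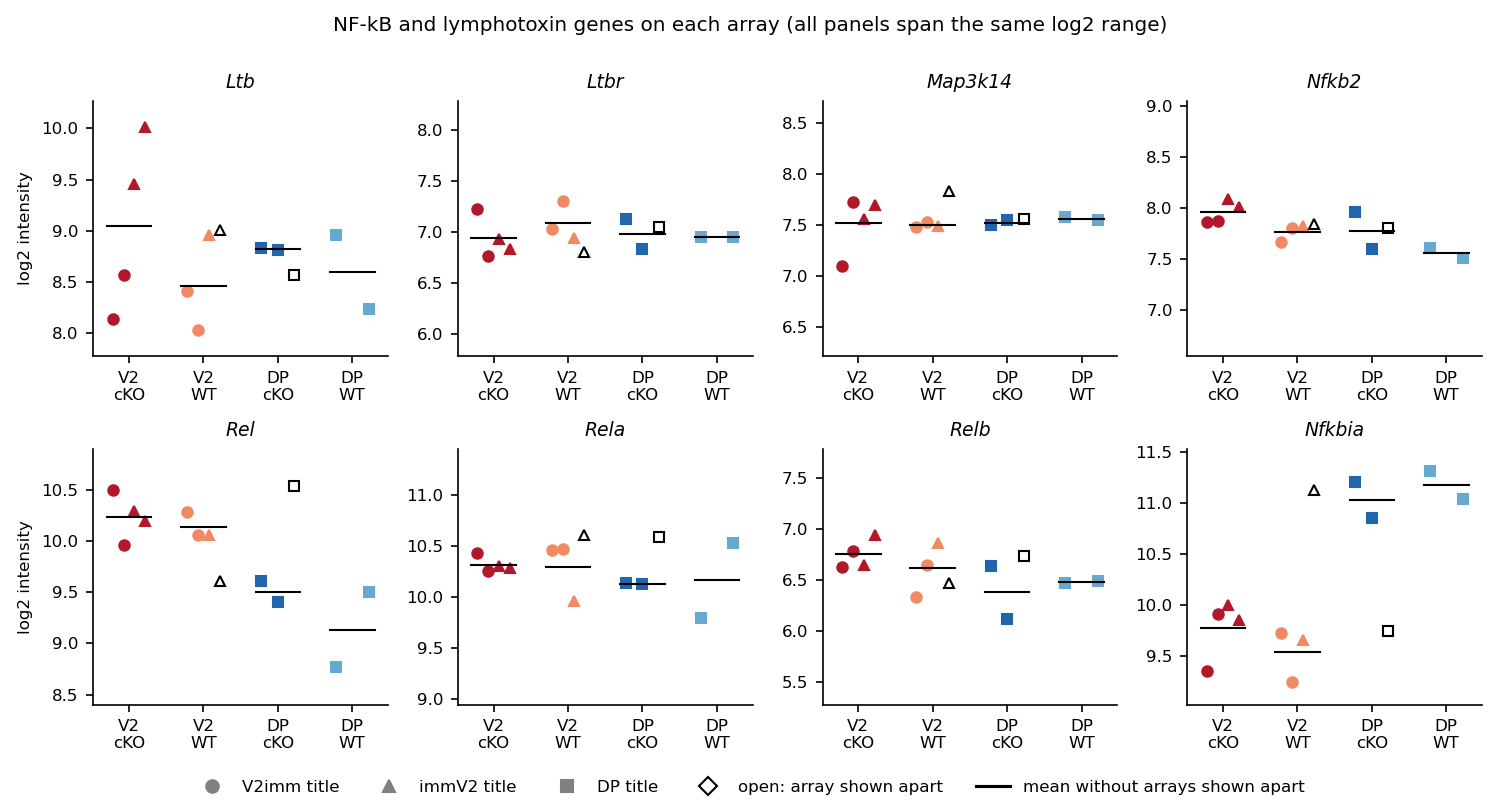
Log2 intensity (y axis) of the 8 measured members on each array, by group; circles and triangles are the V2imm and immV2 titles, squares are DP arrays, open symbols are the arrays shown apart and lines are means without them. Nfkbia lies at 9.25 to 10 in V2 and 10.85 to 11.31 in DP, Rel at 9.96 to 10.50 in V2 and 8.77 to 9.61 in DP, and the open symbols of these genes lie with, or just beyond, the other population.

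The arrays shown apart went with their population markers for both genes. The array labelled DP cKO replicate 5 had Nfkbia at 9.75, within the range of the V2 arrays, and Rel at 10.53, just above it. Replicate 5 of V2 WT (immV2), as labelled, had Nfkbia at 11.13 and Rel at 9.61, both within the range of the DP arrays. With all 13 arrays as labelled, the V2 WT minus DP WT difference was -1.23 for Nfkbia (SE 0.43, adjusted p = 0.481) and 0.87 for Rel (SE 0.32, adjusted p = 0.495), so 0 of the 8 members passed, where 0.0557% of all genes did. In knockout cells as labelled it was -0.82 for Nfkbia and 0.39 for Rel, with 0 of the 8 members and 0.0354% of all genes called. With both genotypes averaged, as labelled, V2 and DP differed by -1.03 for Nfkbia (SE 0.29, adjusted p = 0.113 by limma). For Rel that average was 0.63 (SE 0.21, adjusted p = 0.175 by limma), and neither passed.

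Macrophage and dendritic cell markers, 15 of 15 measured, summed to intensities of 2085 to 6619 on the 4 V2imm arrays, 1089 to 1535 on the 3 immV2 arrays and 1176 to 1283 on the 4 DP arrays, and 1 of the 15, Fcer1g, named after its value was seen, was called higher in V2 WT than in DP WT. The median of the 15 was 0.26, and 3.2% of all genes were called higher. Of 15 epithelial and stromal markers, 5 lay above 0, with a median of -0.05. Of these 15, 1 was called higher, Pdgfrb (2.60, SE 0.35), also named after its value was seen, beside the same 3.2% of all genes. The sums of these markers were 2874 to 3684 in V2 arrays and 2261 to 2439 in DP arrays. The part of other cells in the Nfkbia and Rel differences was not tested. With V2 arrays of the V2imm set alone, V2 WT minus DP WT was -1.69 for Nfkbia (SE 0.29, adjusted p = 0.00651) and 1.04 for Rel (adjusted p = 0.112). With the immV2 set alone it was -1.51 for Nfkbia and 0.93 for Rel, but V2 WT is then 1 array, assumed to vary like the other groups, so no call is read from it. In bulk RNA of sorted cells, a change in the makeup of the cells and a change in RNA per cell cannot be told apart.

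The other subunits showed no difference that passed between V2 and DP. Rela, which encodes the main activating subunit p65, was bright on every array, above 91.4% to 96.2% of all genes. It read 10.46, 10.46 and 9.96 in V2 WT, against 9.79 and 10.53 in DP WT, overlapping widely (0.10, SE 0.23, interval -0.40 to 0.60). In cKO cells it read 10.25 to 10.43 in V2, against 10.13 on both DP arrays (0.19, SE 0.22), without overlap but also not called. Nfkb2, the gene of the non-canonical precursor, read 7.67, 7.81 and 7.82 in V2 WT, against 7.61 and 7.51 in DP WT (0.23, SE 0.16, adjusted p = 0.674). The groups did not overlap, but the interval of the difference, -0.12 to 0.58, spanned 0.

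Relb, the partner of processed Nfkb2, was dim, brighter than only 30.3% to 49.3% of genes on an array. Its values were 6.63, 6.78, 6.64 and 6.94 in V2 cKO, 6.33, 6.65 and 6.86 in V2 WT, 6.63 and 6.12 in DP cKO, and 6.47 and 6.49 in DP WT. V2 exceeded DP by 0.17 in WT (SE 0.18) and by 0.37 in cKO (SE 0.17, adjusted p = 0.334), and neither passed. Averaged over both genotypes the difference was 0.27 (SE 0.12, unadjusted p = 0.047, adjusted p = 0.233). No detection call was used, so it is not known whether such dim readings exceed background, and true differences could be compressed.

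Ltbr, the lymphotoxin β receptor gene, showed no called difference in any comparison. It read 7.22, 6.77, 6.93 and 6.83 in V2 cKO, 7.03, 7.30 and 6.94 in V2 WT, 7.13 and 6.83 in DP cKO, and 6.95 on both DP WT arrays. The groups overlapped throughout, and the V2 WT minus DP WT difference was 0.11 (SE 0.17, interval -0.25 to 0.48). Its level sat near the middle of each array, above 45.6% to 54.8% of genes, so it carries the same limit as Relb. Among the members its range over the 11 arrays, 0.53, was the smallest, and 25.4% of all genes varied less.

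Map3k14, the gene of the kinase NIK, had no called difference either. It lay between 7.48 and 7.73 on 10 of the 11 arrays and at 7.10 on V2 cKO replicate 4 (V2imm). The V2 WT arrays lay just below both DP WT arrays, at -0.04 (SE 0.18, interval -0.44 to 0.35), and V2 cKO minus DP cKO was 0.00 (SE 0.17). NIK is mainly controlled through protein stability, which an RNA array does not measure.

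**Figure D2:**
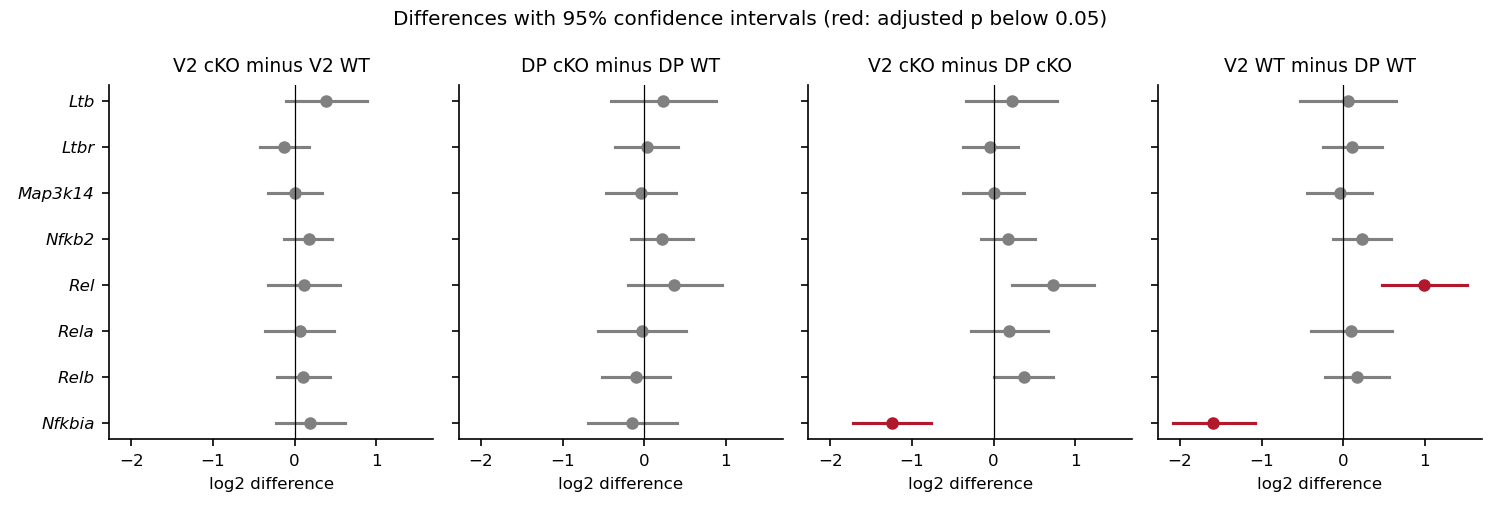
Log2 differences (x axis) of the 8 members with 95% confidence intervals in the 4 comparisons of the 11 arrays; red marks an adjusted p below 0.05. Nfkbia is called in both population comparisons (-1.25 and -1.59) and Rel in the wild-type one (0.99), while every interval of the 2 comparisons of cKO with WT spans 0.

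No measured member passed the test between Sox4 cKO and WT. In V2 cells 0 of the 8 were called between cKO (n = 4) and WT (n = 3), where 0% of all genes were, and the adjusted p was 0.999 for each member by limma. At an unadjusted p below 0.05 there were 0 of the 8 members and 757 of the 19752 genes. In DP cells 0 of the 8 were called (n = 2 each), where 0.0253% of all genes were, each with an adjusted p of 1, and again 0 members at an unadjusted p below 0.05. The summed γδ markers, 6242 to 11500 in V2 cKO and 13546 to 14972 in V2 WT, did not overlap between the V2 genotypes, though 0 of the 8 markers were called (median -0.53). The sum is of linear intensities, so the brightest markers, such as Etv5, weigh most in it. Single markers ran from -1.35 to 0.24, and 2 of the 8 lay above 0. Summed DP markers were 2542 to 3699 in V2 cKO and 3384 to 3669 in V2 WT. The part of the γδ markers in the members' values was not tested. No member was called in the difference of the knockout effects between V2 and DP, where 0% of all genes were, and 0 of the 8 had an unadjusted p below 0.05 against 372 of all genes.

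The 95% confidence intervals bound the differences. In V2 cells the cKO minus WT difference was 0.10 for Relb (interval -0.22 to 0.43), -0.13 for Ltbr (-0.43 to 0.18), 0.00 for Map3k14 (-0.33 to 0.34) and 0.06 for Rela (-0.36 to 0.48). It was 0.11 for Rel (-0.33 to 0.55) and 0.19 for Nfkbia (-0.23 to 0.62). In each of these a 2-fold change of the reading, or 1 log2 unit, lies outside the interval. For the dim genes Relb and Ltbr this bounds the reading only, since a true difference in RNA could be compressed. In DP cells, with fewer arrays, the intervals were wider, such as -0.41 to 0.88 for Ltb, -0.20 to 0.95 for Rel and -0.69 to 0.40 for Nfkbia.

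Nfkb2 was the 1 member whose V2 groups did not overlap by genotype. It read 7.86, 7.87, 8.08 and 8.01 in V2 cKO, against 7.67, 7.81 and 7.82 in V2 WT, so all 4 cKO arrays lay above all 3 WT arrays. The difference was small (0.17, SE 0.14, interval -0.13 to 0.46) and not called, and V2 cKO and WT did not overlap for 3.45% of all genes. The array labelled V2 WT replicate 5 (immV2) read 7.84, but it carries DP markers and does not count as a V2 WT array here. In DP cells Nfkb2 read 7.96 and 7.59 in cKO, against 7.61 and 7.51 in WT, and overlapped. In DP 0 of the 8 members had cKO and WT arrays apart, where 29.8% of all genes did.

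Ltb, which encodes the membrane-bound partner of lymphotoxin α, spread most among V2 arrays. It read 8.14, 8.56, 9.46 and 10.02 in V2 cKO, against 8.41, 8.03 and 8.96 in V2 WT. In DP it read 8.84 and 8.81 in cKO, against 8.95 and 8.23 in WT. The V2 cKO minus WT difference was 0.39 (SE 0.23, interval -0.11 to 0.89), and it was 0.13 within the V2imm set and 0.78 within the immV2 set, with no call in either. The immV2 set has 1 WT array, assumed to vary like the other groups. Ltb averaged 8.46 in V2 WT and 8.59 in DP WT. The fitted difference was 0.06 (SE 0.27) with the title set term and -0.13 without it, so its sign depends on that term, and it was not called with either.

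The V2 values of Ltb differed with the way the titles are written. The 3 immV2 arrays averaged 9.48 ± 0.53 (SD, n = 3), and the 4 V2imm arrays averaged 8.28 ± 0.25 (SD, n = 4), with no overlap. In the fit the title set had a coefficient of 1.13 for Ltb (SE 0.23, adjusted p = 0.0204 by limma), read after the data were seen. It was the 1 member of the 8 called there, where 2.5% of all genes were. With all 13 arrays as labelled it was 1.08 (adjusted p = 0.0243). That fit counts the array labelled V2 WT replicate 5, which carries DP markers, in the immV2 set, so it does not check a difference among V2 cells. The call did not hold without V2imm V2 WT replicate 5 (1.11, adjusted p = 0.0771), without immV2 V2 cKO replicate 3 (1.20, adjusted p = 0.0611) or without immV2 V2 cKO replicate 4 (0.92, adjusted p = 0.11). The labels do not say what the spelling of the titles stands for.

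Other genes moved with the title sets in the same fit. Tnfsf11, which encodes RANKL, a TNF family ligand that acts on thymic epithelium through non-canonical NF-kB, was also higher in immV2 (1.46, SE 0.22, adjusted p = 0.0029), as was Tnfsf14, the gene of the lymphotoxin receptor ligand LIGHT (0.68, SE 0.13, adjusted p = 0.0151). Ltb, Tnf and Lta lie in that order on chromosome 17, with 3061 bases between Ltb and Tnf and 1157 between Tnf and Lta. Of these neighbours Tnf had 0.59 (SE 0.18, adjusted p = 0.121) and Lta, whose product joins that of Ltb in the ligand, had 0.18 (SE 0.12, adjusted p = 0.426), neither called. Cd24a, the gene of the sort marker, named after its values were seen, was lower in immV2 (-1.40, SE 0.32, adjusted p = 0.038). It read 10.38 and 9.46 on the immV2 cKO arrays, which had the highest Ltb, and 11.67 on the immV2 WT array, against 12.31 and 11.61 on the V2imm cKO arrays and 12.21 and 12.02 on the V2imm WT arrays. The antigen-presentation gene Cd74 was lower in immV2 as well (-3.03, SE 0.53, adjusted p = 0.00898). The part of maturity or of other cells in the Ltb values was not tested.

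**Figure D3:**
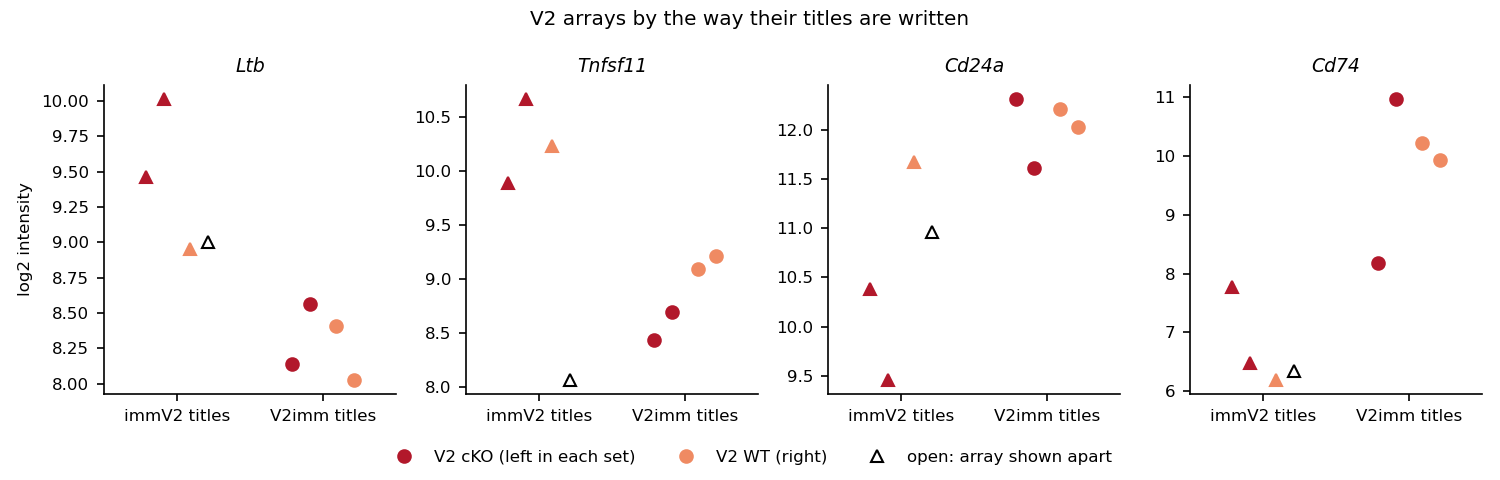
Log2 intensity (y axis) of Ltb, Tnfsf11, Cd24a and Cd74 on the V2 arrays, split by the spelling of the titles, with cKO left of WT in each set; the open triangle is the array labelled V2 WT replicate 5 (immV2), shown apart. Ltb is 8.96 to 10.02 on the 3 filled immV2 arrays and 8.03 to 8.56 on the V2imm arrays, with Tnfsf11 also higher and Cd74 lower in immV2.

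Genes whose levels ran most like those of 3 members over the 11 arrays were sought among genes that ranged by at least 1 log2 unit. For Ltb these were Gstt2 (Pearson r = 0.943), Cd52 (0.938) and Emb (0.934). Cd52, a surface glycoprotein gene of lymphocytes, spanned 9.86 to 12.64, with its highest values on the immV2 cKO arrays, as for Ltb. For Relb they were Faah (0.821), Pim2 (0.820) and Il18r1 (0.798), and for Ltbr they were Trdn (0.880), Itln1 (0.879) and Olfr1490 (0.870). These are the highest of 5275 or more candidates, the arrays share their population and title set, and Ltbr moved by 0.53 at most, so they describe these arrays only.

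Other genes of the pathway were read from lists, with V2 WT set against DP WT. Group means are those of the arrays themselves. Differences come from the fit with the title set term, so they can depart from the gap between the means. Among 11 TNF family ligands 2 were higher and 0 lower, where 3.2% of all genes were higher and 1.67% were lower. They were Tnfsf11, with a mean of 9.51 in V2 WT and 8.24 in DP WT (1.52, SE 0.26, adjusted p = 0.00313), and the death ligand gene Tnfsf10, with 8.63 in V2 WT and 7.10 in DP WT (1.66, SE 0.25, adjusted p = 0.00118). Tnf was at 0.74 (SE 0.22, adjusted p = 0.0777), not called, and Lta at 0.39 and Tnfsf14 at 0.40 were not called either. The median of the ligands was 0.38, and that of all genes was -0.023.

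Among 14 TNF family receptors 1 was higher and 1 lower, where 3.2% and 1.67% of all genes were, with a median of -0.02. The receptors of TNF itself ran in opposite directions: Tnfrsf1b, the receptor of activated lymphocytes, averaged 8.33 in V2 WT and 7.60 in DP WT (0.96, SE 0.21, adjusted p = 0.0146), and Tnfrsf1a, the widely expressed receptor, averaged 8.63 in V2 WT and 9.42 in DP WT (-0.79, SE 0.20, adjusted p = 0.0348). Tnfrsf9 (1.15, SE 0.31, adjusted p = 0.0543) and Tnfrsf14, which binds LIGHT (0.80, SE 0.22, adjusted p = 0.0551), did not pass. Tnfrsf1b also read 9.67, 9.40 and 9.18 on the immV2 arrays, against 7.80, 8.44, 7.93 and 7.89 on the V2imm arrays.

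Among 21 kinase complex and adaptor genes 1 was higher and 0 lower, where 3.2% and 1.67% of all genes were, with a median of 0.10. It was Prkcq, the protein kinase C gene that links the T cell receptor to NF-kB, at 12.07 in V2 WT and 11.01 in DP WT (1.11, SE 0.18, adjusted p = 0.00246). Its downstream partners Malt1 (0.61, SE 0.22) and Bcl10 (-0.45, SE 0.21) were not called, nor was the kinase gene Ikbke (0.97, SE 0.35).

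Among 14 IkB proteins and brakes 1 was higher and 1 lower, where 3.2% and 1.67% of all genes were, with a median of 0.11. Tnfaip3, which encodes the ubiquitin-editing brake A20 and is itself induced by NF-kB, was lower like Nfkbia. It read 8.90, 8.63 and 8.77 in V2 WT, against 9.46 and 9.64 in DP WT (-0.77, SE 0.19, adjusted p = 0.032). Nlrc3, an inhibitory NOD-like receptor gene, was higher (1.13, SE 0.26, adjusted p = 0.0231). The atypical IkB gene Bcl3 had 0.66 (SE 0.20, adjusted p = 0.0955) and was not called. In V2 cKO, Tnfaip3 read 8.05, 8.35, 8.29 and 8.50, below all 3 V2 WT arrays, without passing (-0.49, SE 0.16, unadjusted p = 0.0086, adjusted p = 0.869).

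Genes known as NF-kB targets did not move one way between V2 WT and DP WT. Of 20, which include Tnfaip3, 2 were higher and 2 lower, where 3.2% and 1.67% of all genes were, with a median of 0.12. The chemokine receptor gene Ccr7 averaged 10.46 in V2 WT and 7.89 in DP WT (2.67, SE 0.30, adjusted p = 0.000117), and Irf1 averaged 9.60 in V2 WT and 8.29 in DP WT (1.36, SE 0.20, adjusted p = 0.000947). The survival gene Bcl2l1, which DP thymocytes are known to depend on, averaged 7.49 in V2 WT and 9.55 in DP WT (-2.09, SE 0.23, adjusted p = 8.05e-05). Several of these genes have other regulators, so a target list does not read out NF-kB alone.

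**Figure D4:**
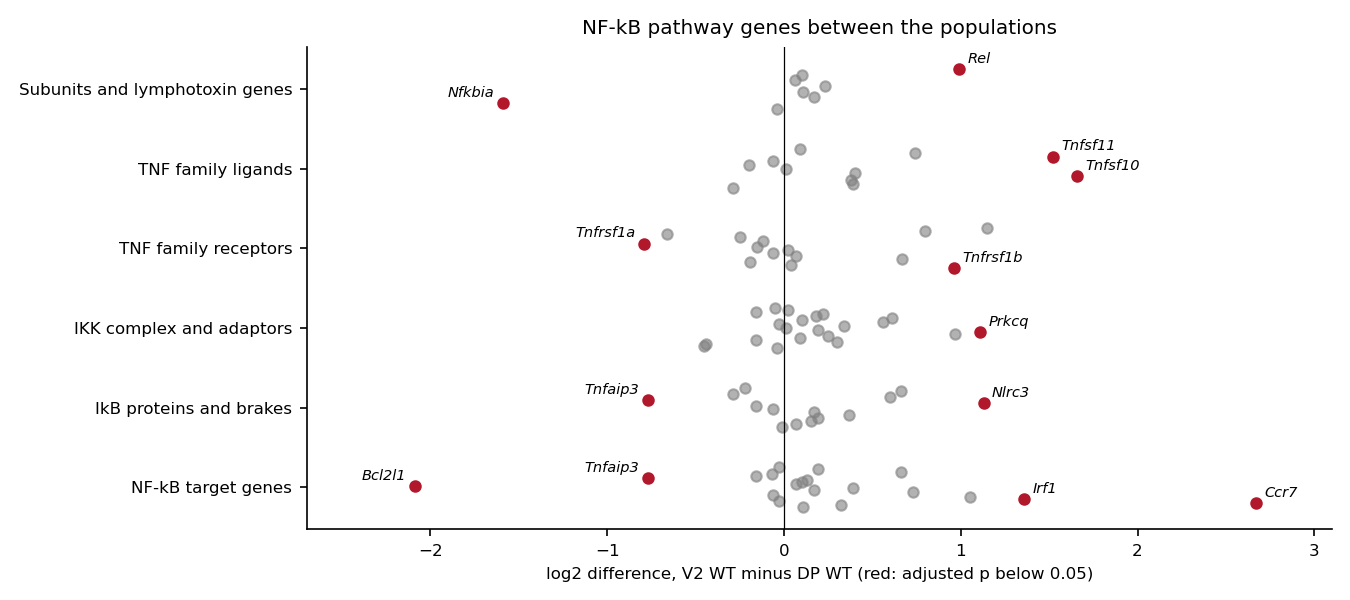
Log2 difference V2 WT minus DP WT (x axis) of single genes (points) in 6 lists (rows); red points with names have an adjusted p below 0.05, and Tnfaip3 stands in 2 lists. Called genes lie on both sides of 0, from Bcl2l1 at -2.09 to Ccr7 at 2.67, with Nfkbia at -1.59 and Rel at 0.99 in the top row.

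No gene of these 5 lists was called between cKO and WT in either population. The smallest p in V2 belonged to Tnfsf8, the ligand gene of CD30, at 0.73 (SE 0.19, unadjusted p = 0.0021, adjusted p = 0.463), and in DP to Tnf at 0.80 (SE 0.23, unadjusted p = 0.0048, adjusted p = 0.938). In V2 cKO against V2 WT the median was -0.03 for ligands, 0.01 for receptors, -0.02 for the kinase complex and adaptors, 0.02 for IkB proteins and brakes and 0.06 for targets, beside 0.008 for all genes.

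The IL-17 γδ genes, which the receptor and RelB are known to support, gave shared values for the same cells. Of 10 measured, 5 were called higher in V2 WT than in DP WT, where 3.2% of all genes were. Of these, Etv5, Maf, Blk and Sox13 are also among the γδ markers summed above. The other was Rora (2.50, SE 0.29, adjusted p = 0.000153 by limma). In V2 cKO against V2 WT 0 of the 10 were called, where 0% of all genes were. Their median was -0.87, and 1 of the 10 lay above 0. Il17re was at -1.08 (SE 0.16, unadjusted p = 1.2e-05, adjusted p = 0.0572 by limma), the smallest adjusted p of all genes there. For Il17re all 4 V2 cKO arrays lay below all 3 V2 WT arrays, and the same held for Sox13, Maf and Etv5. V2 cKO and WT did not overlap for 3.45% of all genes. The 8 NF-kB and lymphotoxin genes had a median of 0.11 and all genes one of 0.008.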

How the data were processed

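Each of 13 Affymetrix arrays measured RNA from 1 sample of thymocytes. The authors' deposited table holds an intensity per probe set, and the submitters' processing notes name Affymetrix Power Tools and RMA, which corrects background, normalises arrays and summarises probes. Its spread showed a linear scale, so log2 was taken here from the deposited intensities. Of 24922 probe sets, 21425 had 1 symbol in the platform annotation, and 21347 of these matched the RefSeq gene table. The brightest probe set stood for a gene, which left 19752 genes. Array medians were 122.2 to 137.2. There is no sequencing depth, and precision is set by how many arrays there are.

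Groups came from the titles. limma 3.58.1 in R 4.3.3 (lmFit, eBayes with an intensity trend) fitted 4 group means and a covariate for the V2 title set on 11 arrays, two-sided, with Benjamini-Hochberg adjustment over all genes and a threshold of 0.05; the script was tested on simulated data. Members, lists and arrays shown apart were chosen with earlier results of these data known. Named genes were all members and, per list, up to 6, 4 and 2 with the smallest p in V2 WT minus DP WT, V2 cKO minus V2 WT and DP cKO minus DP WT, together with marker genes and the genes most like 3 members. The title set coefficient, the average over genotypes and the κB motif were chosen after seeing the data. Alternatives covered arrays, normalisation, filters, moderation, blocks and left-out arrays. No genome sequence beyond RefSeq promoter windows was used. Figures used matplotlib 3.10.9 in Python 3.11.15.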

Additional observations from a re-analysis of the deposited data

Results flagged for a closer look

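Map3k14 had 1 array far from the rest of its group. The array labelled V2 WT replicate 5 (immV2) read 7.83 in log2 intensity, against 7.48, 7.53 and 7.49 on the other V2 WT arrays, a gap of 0.862 of the whole range. This is the array with the markers of the other population, and it is left out of the tests above. Its value was also above every DP array of the 11, at 7.50 to 7.58. It was 1 of 16 group and gene pairs examined, and chance alone marks about 1 group in 20.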

How the results depend on the processing

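Over the alternatives, 41 member results (4 of them called) gave 891 values, of which 815 had the same direction and call, 21 were no longer called, 1 became called and 54 changed sign, 0 of those past the threshold. Map3k14 was at 0 after rounding in V2 cKO minus V2 WT and in V2 cKO minus DP cKO. Its values on either side of 0 were counted there as the same direction. They ran from -0.13 to 0.18 and from -0.11 to 0.15. Nfkbia stayed lower and Rel higher in V2 in all alternatives. Rel in V2 WT minus DP WT was called in 8 of 22 alternatives, with adjusted p from 0.01 to 0.495. The cause of the changes below was not tested.

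For V2 cKO minus V2 WT, 0 genes were called, against 13 with quantile normalization, 9 without the dimmest genes (mean below the lower quartile), 6 with the V2imm set alone, and 0 to 44 when 1 array was left out (44 without V2imm cKO replicate 5, 7 without immV2 cKO replicate 4 and 5 without immV2 WT replicate 3). For DP cKO minus DP WT, 5 were called, against 0 with 13 arrays as labelled, 9 with quantile normalization, 8 without the dimmest genes, 3 without the title set term, 0 with the DP arrays alone, and 0 to 14 when 1 array was left out. For V2 WT minus DP WT, 962 were called, against 11 as labelled, 594 without the title set term, and 477 to 1575 when 1 array was left out, the lowest without DP WT replicate 3. For V2 cKO minus DP cKO, 1076 were called, against 7 as labelled, 637 without the title set term, 577 with only the groups compared, and 480 to 1632 when 1 array was left out, the lowest without DP cKO replicate 3. For the difference of knockout effects, 0 were called, and 0 to 4 when 1 array was left out.

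Same-numbered arrays of the 2 genotypes had correlated deviations of 0.273, -0.108 and 0.524 in V2 and 0.179 in DP. Differently numbered V2 arrays of the same title set gave 0.143, 0.498 and 0.599. In DP, with 2 arrays per group, only 0.179 or -0.179 could arise. These values cannot settle whether the numbers are pairs, and the main fit did not take them as pairs. With a replicate block by number 5 genes were called in V2, and with the block within a title set 34 in V2 and 8 in DP. With the block by number, signs changed in DP cKO minus DP WT for Map3k14 (0.07), Rela (0.02) and Relb (0.01), in V2 WT minus DP WT for Ltb (-0.01) and Map3k14 (0.01), and in the difference of knockout effects for Map3k14 (-0.07) and Rela (-0.01). With the block within a title set they changed in DP for Ltb (-0.12), Rela (0.34) and Relb (0.16). The title set coefficient of Ltb was 1.07 with the block by number, no longer called (adjusted p = 0.126).

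With 13 arrays as labelled, signs changed for Rela (-0.06) and Nfkbia (-0.16) in V2 cKO minus V2 WT, for Rela (0.12) and Relb (0.02) in DP, for Map3k14 (0.02) in V2 WT minus DP WT, and for Map3k14 (-0.03) and Rela (-0.18) in the difference of knockout effects. With the V2imm set alone they changed for Rela (-0.12) in V2 cKO minus V2 WT, for Ltb in V2 WT minus DP WT (-0.38) and in V2 cKO minus DP cKO (-0.48), for Ltbr (0.01) in V2 cKO minus DP cKO, and for Ltb (-0.10), Map3k14 (-0.05) and Rela (-0.09) in the difference of effects. With the immV2 set alone they changed for Relb (-0.07) in V2 cKO minus V2 WT, for Ltbr (-0.01) and Rela (-0.20) in V2 WT minus DP WT, and for Nfkb2 (0.01) in the difference of effects. Ltb in V2 WT minus DP WT was -0.04 with quantile normalization, -0.13 without the title set term and -0.01 with only the groups compared.

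Leaving out 1 array turned small values around 0. In V2 cKO minus V2 WT the ranges were -0.13 to 0.18 for Map3k14, -0.01 to 0.26 for Rel, -0.12 to 0.15 for Rela and -0.01 to 0.22 for Relb. In DP cKO minus DP WT they were -0.13 to 0.59 for Ltb, -0.12 to 0.18 for Ltbr, -0.32 to 0.03 for Nfkbia, -0.40 to 0.34 for Rela and -0.36 to 0.16 for Relb. In V2 WT minus DP WT they were -0.30 to 0.42 for Ltb, -0.08 to 0.05 for Map3k14 and -0.27 to 0.47 for Rela. In V2 cKO minus DP cKO they were -0.19 to 0.10 for Ltbr and -0.11 to 0.15 for Map3k14. In the difference of knockout effects they were -0.20 to 0.52 for Ltb, -0.09 to 0.22 for Map3k14, -0.23 to 0.13 for Nfkb2, -0.63 to 0.10 for Rel, -0.28 to 0.46 for Rela and -0.05 to 0.46 for Relb.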
